A study of Mus musculus with 6 samples.

Results

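The genes of sarcoplasmic reticulum calcium cycling were followed in mouse hearts after a high-fat diet (HFD) or a normal diet (ND). The 10 genes were Ryr2, Trdn, Hrc, Casq2, Casq1, Atp2a2, Atp2a1, Pln, Slc8a1 and Camk2d, and every probe of the array that carries one of these names was taken. That gave 17 probes of the 55681 on the array other than controls, or 10 of 36163 gene names. A single probe was present for 6 of the genes, 2 probes each for Atp2a2 and Slc8a1, 3 for Trdn and 4 for Camk2d. The mice were male C57BL/6, all without any transgene or drug named in the labels. From 4 weeks of age and for 4 months, 3 received the HFD, in which 60% of the kcal came from fat, and 3 received the ND, a standard chow. Each heart was hybridised to 1 one-colour (Cy3) Agilent array, and nothing states which part of the heart was taken.

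At each heartbeat a little calcium enters the cardiomyocyte through L-type channels and opens the ryanodine receptors of the sarcoplasmic reticulum, the internal calcium store, and the calcium released there drives contraction. The muscle relaxes when the SERCA pump returns calcium to the store, under the brake of phospholamban, and when the sodium-calcium exchanger carries the remainder out of the cell. Lower SERCA2 and higher exchanger levels are textbook features of failing hearts, so these genes are often read as a measure of whether a cardiac stress has reached the calcium store.

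Levels are given as log2 of the spot's brightness minus the 75th percentile of its array, so that a level of 0 lies at that percentile. As an intensity, that percentile was 489, 483 and 477 in ND 1 to 3 and 516, 453 and 544 in HFD 1 to 3. Since each probe binds with its own strength, a level can be compared between hearts but not between probes. All 17 probes were well above background on all 6 arrays and none was saturated. Across the arrays, 49.2% to 53.0% of probes were well above background, and the 6 arrays shared 1 slide, on which row 1 held HFD 1 and HFD 2 and row 2 held HFD 3 and all ND arrays. The methods of the study give 3 hearts per diet, and the labels give each a replicate number.

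The probes read short stretches of each transcript, and 5 of them, each with at least 1 reading frame free of stop codons, are printed 5′ to 3′ because the results below turn on which transcript they read. All are 60 bases long and come from the deposited files, with positions on mouse build mm9. In Slc8a1 and Casq1 the capitals mark codons for acidic amino acids (aspartate or glutamate), in Trdn codons for lysine, read in the only forward frame that has no stop codon. The Atp2a2 and Atp2a1 probes carry no marked codon and are shown because they read the 2 related SERCA transcripts.
Slc8a1 A_55_P2080758 (chr17:81844837-81844896, minus strand): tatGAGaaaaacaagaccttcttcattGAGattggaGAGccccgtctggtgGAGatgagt
Atp2a2 A_52_P168097 (chr5:122910660-122910719, minus strand): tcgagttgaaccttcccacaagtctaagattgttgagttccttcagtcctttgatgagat
Atp2a1 A_51_P244856 (chr7:133591703-133591762, minus strand): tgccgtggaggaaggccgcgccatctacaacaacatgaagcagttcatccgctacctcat
Casq1 A_51_P199104 (chr1:174140602-174142105, minus strand): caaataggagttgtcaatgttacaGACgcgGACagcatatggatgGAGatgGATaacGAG
Trdn A_55_P2401646 (chr10:32915796-32915855, plus strand): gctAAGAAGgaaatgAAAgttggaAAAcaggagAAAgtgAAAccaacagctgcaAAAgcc
Of the 20 codons in each window, 5 are acidic in Casq1, the calcium-binding calsequestrin, and 7 are lysine in Trdn, whose lysine-rich part lies inside the store. Acidic codons make up 4 of 20 in the exchanger Slc8a1. The Casq1 probe covers 1504 bases of the genome with its 60 bases, so its position in the genome is not 1 unbroken stretch. The position of the probes relative to annotated exons, coding sequence and untranslated regions was not analysed here.

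After the HFD the mRNA of this set was close to its ND level. Of the 17 probes, 0 passed the adjustment for multiple testing in limma (Benjamini-Hochberg over the 27590 probes tested, of which 0.0145% passed), and the smallest adjusted p among them was 0.446. At an unadjusted p below 0.05 there were again 0 of 17, beside 11.9% of all probes tested. The ND and HFD hearts did not overlap for 2 of the 17, both of Slc8a1 and both higher in HFD, beside 19.0% of all probes. Fold changes were lower in HFD for 12 probes and higher for 5, with a median of -0.08 on the log2 scale against -0.01 for all probes. Their median size without regard to sign, 0.12, was like that of all probes, 0.11. The calls depended on HFD 2: without it 11 of 17 probes did not overlap, 2 higher and 9 lower in HFD, where 33.2% of all probes did not, and 2 probes had an unadjusted p below 0.05, beside 12.6% of all probes. Without HFD 1, 1 probe reached that limit (11.8% of all probes) and 4 did not overlap (31.4% of all probes). Without ND 3, 4 did not overlap (31.2% of all probes). In every case 0 passed the adjustment.

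These null results come with limits of size. For 15 of the probes, all but Casq1 and the dimmest Camk2d probe, the 95% confidence interval of the HFD level lay between 76.5% and 127% of the ND level, so a change of 2-fold in either direction lay outside the interval. The standard errors of the set had a median of 0.08, against 0.11 for all probes tested.

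**Figure D1:**
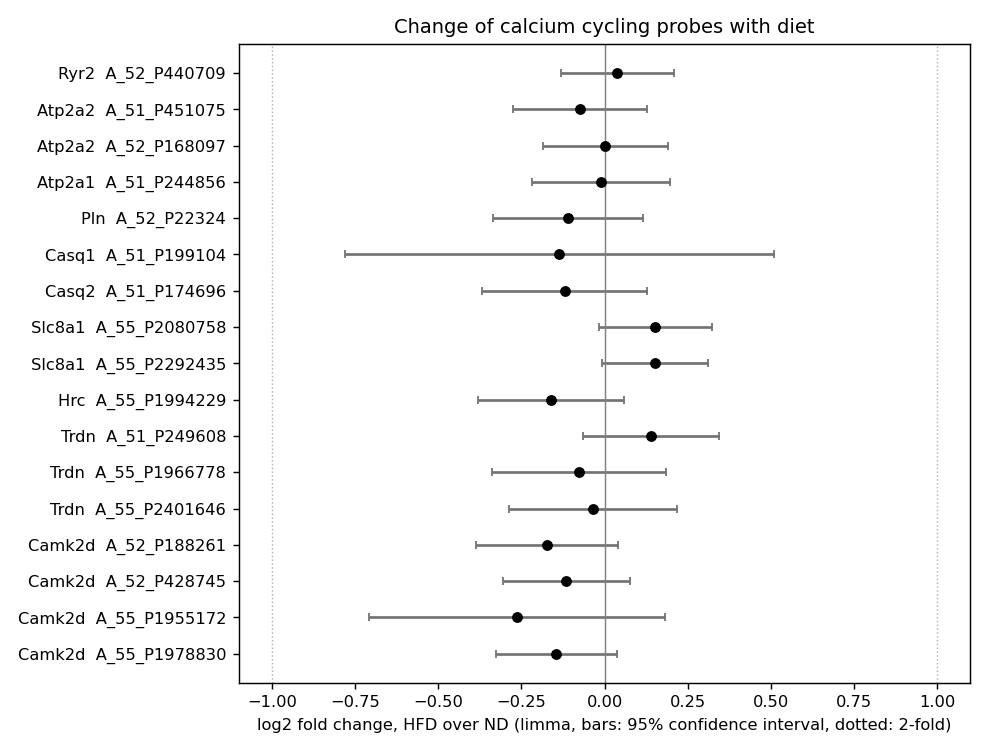
Log2 fold change of HFD over ND (x axis) for each of the 17 probes (rows), with bars for the limma 95% confidence interval, n = 3 hearts per diet, and dotted lines at a 2-fold change. Every interval includes 0 and none reaches 2-fold, and the intervals of Casq1 and Camk2d A_55_P1955172 are the widest.

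Slc8a1 encodes NCX1, the sodium-calcium exchanger that carries calcium out of the cardiomyocyte. At A_55_P2080758, printed above, its ND hearts read 0.10, 0.15 and 0.11 (replicates 1 to 3, the order used throughout) and its HFD hearts 0.19, 0.31 and 0.32. All 3 HFD hearts thus lay above all 3 ND hearts, though HFD 1 exceeded the highest ND heart by little. The mean was 0.12 ± 0.03 (SD, n = 3) in ND and 0.27 ± 0.07 (SD, n = 3) in HFD, which is a difference of 0.15 (SE 0.07; limma adjusted p = 0.464), or 111% of the ND level with a 95% interval of 98.8% to 125%. The exact permutation test, two-sided, gave p = 0.10, the smallest that 3 against 3 hearts allow.

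A probe at another part of Slc8a1, A_55_P2292435 (chr17:81787868-81787927, minus strand), is a dim one. Its levels were -2.48, -2.57 and -2.57 in the ND hearts and -2.42, -2.38 and -2.37 in the HFD hearts, again with every HFD heart above every ND heart. HFD reached 111% of ND here too (95% interval 99.4% to 124%; log2 fold change 0.15, SE 0.07, limma adjusted p = 0.446). The probes of Slc8a1 read the same gene in the same hearts, so they do not count as 2 independent results. Which transcript of Slc8a1 each probe reads was not analysed here. Unadjusted, their limma p was 0.0709 and 0.0602, and it crossed 0.05 in some settings, such as quantile normalization (0.0497 and 0.0420) and the methods' t-test (0.0280 and 0.0125), without passing the adjustment in any. For the first probe, p was 0.0345 without HFD 1. When the row of the slide entered the model, the fold changes were 0.20 and 0.17. Since row 1 holds no ND heart, these are by construction the differences between HFD 3 alone and the 3 ND hearts of row 2, so row and diet cannot be told apart for HFD 1 and HFD 2.

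**Figure D2:**
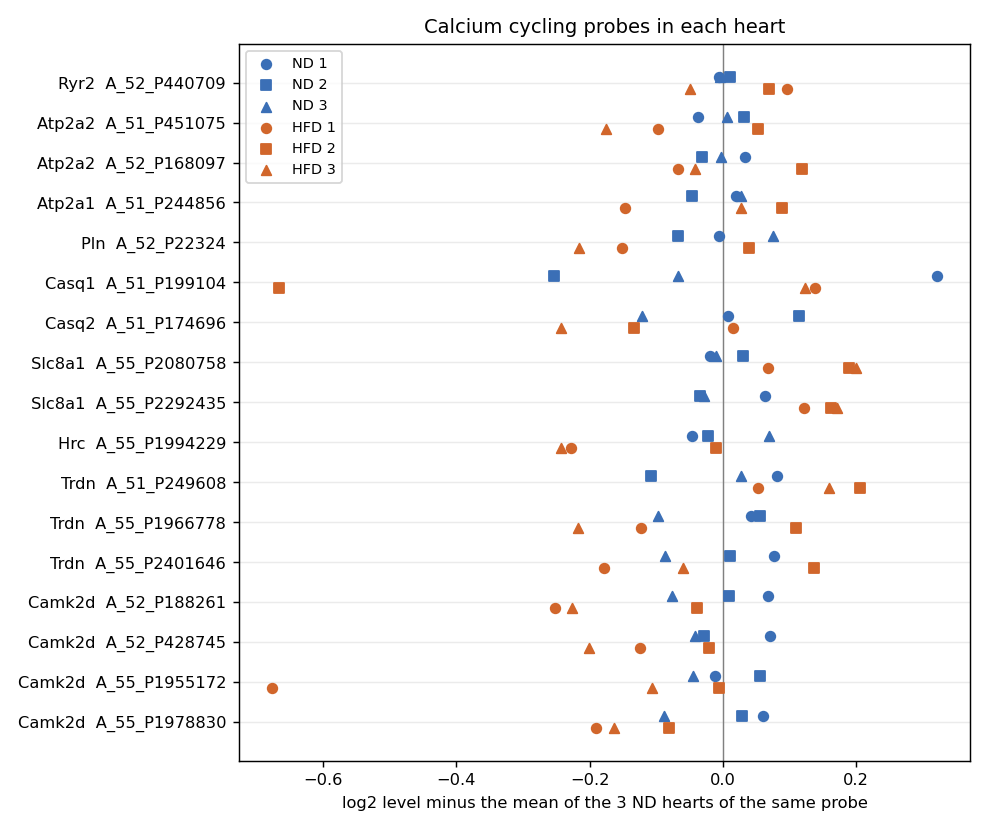
Log2 level of each heart minus the mean of the 3 ND hearts (x axis) for each of the 17 probes (rows), blue for ND and orange for HFD, with a marker shape for each heart. The HFD hearts stand entirely to the right of the ND hearts only in the Slc8a1 rows, and HFD 2 (orange square) is the highest HFD heart in 12 rows.

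Atp2a2 encodes SERCA2, the pump that refills the store in the heart. Its brighter probe, A_51_P451075 (chr5:122903704-122903763, minus strand), read 7.76, 7.83 and 7.80 in the ND hearts and 7.70, 7.85 and 7.62 in the HFD hearts. HFD 2 was the highest of all 6 and HFD 3 the lowest, so the groups overlapped, and HFD stood at 95.1% of ND (95% interval 82.7% to 109%; limma adjusted p = 0.775). Before the array's percentile was subtracted, HFD 2 was the lowest of all 6, with an intensity of 104709 against 105980 to 109925. A_52_P168097, printed above, read 5.66, 5.60 and 5.63 in ND and 5.56, 5.75 and 5.59 in HFD. Its means were the same to the second decimal, 5.63 ± 0.03 (SD, n = 3) and 5.63 ± 0.10 (SD, n = 3), and HFD was at 100.2% of ND (95% interval 87.9% to 114%; limma adjusted p = 0.992).

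Pln encodes phospholamban, the small membrane protein that slows SERCA2 until it is phosphorylated. Its probe, A_52_P22324 (chr10:53064944-53065003, plus strand), read 7.49, 7.43 and 7.57 in the ND hearts and 7.35, 7.54 and 7.28 in the HFD hearts. HFD 1 and HFD 3 lay below every ND heart, and HFD 2 lay within the ND range. HFD was at 92.7% of ND (95% interval 79.3% to 108%; limma adjusted p = 0.697). The amount of phospholamban relative to the pump bears on how strongly the pump is held back, so the change in Pln was also set against that in Atp2a2 within each heart, as were Slc8a1 and Atp2a2. Relative to A_51_P451075 the change in Pln was -0.04 on the log2 scale (exact permutation p = 0.60, adjusted 0.60 over the 3 comparisons made). Relative to A_52_P168097 it was -0.11, with all 3 HFD hearts below all 3 ND hearts (exact permutation p = 0.10, adjusted 0.15). The probes of Atp2a2 thus gave different sizes for the same quantity. Slc8a1 A_55_P2080758 relative to Atp2a2 A_52_P168097 was higher by 0.15 in HFD, or 111% of ND, with no overlap between the diets (exact permutation p = 0.10, adjusted 0.15). These 3 relations were chosen after the values had been seen.

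Atp2a1 encodes SERCA1, the pump of fast skeletal muscle, which is known to be scarce in heart muscle. Its probe, printed above, read 3.94, 3.87 and 3.94 in ND against 3.77, 4.01 and 3.94 in HFD. HFD 1 was the lowest heart and HFD 2 the highest, and the ND hearts lay between, at 3.92 ± 0.04 (SD, n = 3) against 3.91 ± 0.12 (SD, n = 3) in HFD, or 99.2% of ND (95% interval 86.0% to 115%; limma adjusted p = 0.976). The sign of so small a difference turned in 7 of 19 other settings. The probe was well above background on all 6 arrays. Of the 10 fast skeletal muscle genes listed, Myh1, Myh4 and Actn3 were so on 1 array each, Myh2 on 2 and Mylpf on 0. The others, Mybpc2, Tnni2, Pvalb, Tnnc2 and Tnnt3, were so in all hearts of at least 1 diet. Among the 5 of 10 fast skeletal genes that could be tested, 3 were lower in HFD at an unadjusted limma p below 0.05, beside 6.63% of all probes tested, and none passed the adjustment. Their mean level ran from -0.39 to 0.07 in the ND hearts and from -0.80 to -0.50 in the HFD hearts. The difference in Atp2a1 was -0.01 on the log2 scale. Whether the Atp2a1 probe also binds the related Atp2a2 RNA was not tested.

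Ryr2 encodes the cardiac ryanodine receptor, the channel through which the store empties. Its probe, A_52_P440709 (chr13:11645812-11645871, minus strand), was very even in the ND hearts, at 5.40, 5.41 and 5.40. The HFD hearts read 5.50, 5.47 and 5.35, so that 2 lay above and 1 below the ND hearts. HFD was at 103% of ND (95% interval 91.3% to 116%; limma adjusted p = 0.869), and the sign turned when the row of the slide entered the model.

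Trdn encodes triadin, which anchors calsequestrin to the ryanodine receptor. Its 3 probes gave no common direction. A_51_P249608 (chr10:32919981-32920040, plus strand) read 5.52, 5.33 and 5.46 in ND and 5.49, 5.64 and 5.60 in HFD, with HFD 2 and HFD 3 above the ND range and 110% of ND overall (95% interval 95.6% to 127%; limma adjusted p = 0.579). A_55_P2401646, with the lysine codons printed above, read 3.82, 3.76 and 3.66 in ND and 3.57, 3.88 and 3.69 in HFD. Here HFD 1 was the lowest heart and HFD 2 the highest, and HFD stood at 97.6% of ND (95% interval 82.0% to 116%). The dim A_55_P1966778 (chr10:33194264-33194323, plus strand) read -2.82, -2.81 and -2.96 in ND and -2.98, -2.75 and -3.08 in HFD, at 94.8% of ND. Triadin is made as several splice forms, and which form each probe reads was not analysed here.

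Hrc encodes the histidine-rich calcium-binding protein of the store, which binds both triadin and SERCA2. At A_55_P1994229 (chr7:52594281-52594340, plus strand) it read 8.30, 8.32 and 8.42 in the ND hearts and 8.12, 8.34 and 8.10 in the HFD hearts. HFD 1 and HFD 3 were below every ND heart and HFD 2 was among them, which gave 89.5% of ND (95% interval 76.8% to 104%; log2 fold change -0.16, SE 0.09, limma adjusted p = 0.552). Without HFD 2 the fold change was -0.24 with an unadjusted limma p of 0.0268 and an adjusted p of 0.349. With quantile normalization of all hearts the fold change was smaller, at -0.07 (limma adjusted p = 0.689).

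Casq2 encodes calsequestrin 2, the calcium-storing protein of the heart. Its probe, A_51_P174696 (chr3:101949827-101949884, plus strand), read 6.31, 6.41 and 6.18 in ND and 6.31, 6.17 and 6.05 in HFD. HFD 1 was like ND 1 and the other HFD hearts lay below the ND range, at 92.0% of ND in all (95% interval 77.5% to 109%; limma adjusted p = 0.698). Casq1, the calsequestrin of skeletal muscle, varied most between hearts. It read -0.60, -1.18 and -0.99 with the ND against -0.78, -1.59 and -0.80 with the HFD, and HFD 2 was the lowest heart. The interval of 58.2% to 142% of ND is too wide to say more than that no difference was detectable with these hearts (limma adjusted p = 0.880). Without HFD 2 the sign turned, to 0.13.

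Camk2d encodes the delta form of calcium/calmodulin-dependent protein kinase II, the main one in heart, which phosphorylates both the ryanodine receptor and phospholamban. All 4 probes were lower in HFD. The brightest, A_52_P428745 (chr3:126547685-126547744, plus strand), read 4.69, 4.59 and 4.58 in ND and 4.50, 4.60 and 4.42 in HFD, at 92.3% of ND (95% interval 80.9% to 105%; limma adjusted p = 0.624). At A_52_P188261 (chr3:126545798-126545857, plus strand) the levels were 2.31, 2.25 and 2.17 against 1.99, 2.21 and 2.02, at 88.7% of ND (95% interval 76.5% to 103%; log2 fold change -0.17, SE 0.09, limma adjusted p = 0.508). In both, HFD 1 and HFD 3 were below the ND hearts while HFD 2 fell among them. A_55_P1978830 (chr3:126543223-126543282, plus strand) read 1.998, 1.97 and 1.85 in ND and 1.75, 1.86 and 1.77 in HFD, at 90.4% of ND. A_55_P1955172 (chr3:126543318-126543377, plus strand) was dim, at -2.99, -2.93 and -3.03 in ND and -3.66, -2.99 and -3.09 in HFD. Its 83.3% of ND (95% interval 61.2% to 113%) came mostly from HFD 1: without that heart the fold change was -0.06 instead of -0.26. The 4 probes read the same gene in the same hearts, so their shared direction is not 4 independent results. Without HFD 2, A_52_P188261 had an unadjusted limma p of 0.0296 and an adjusted p of 0.358.

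The hearts also differed among themselves within a diet. HFD 2 was the highest HFD heart for 12 of 17 probes, and HFD 1 and HFD 3 were the lowest for 9 and 7. The 75th percentile subtracted was also lowest in HFD 2, at 453 against 516 in HFD 1 and 544 in HFD 3. Before the subtraction the order could differ: for Pln the intensities of HFD 1 to 3 were 84004, 84344 and 84698. The part of this scaling in the order of the hearts was not tested. The spread between hearts was wider in HFD than in ND for 14 of 17 probes, beside 61.9% of all probes tested. The percentiles subtracted ranged more in HFD (453 to 544) than in ND (477 to 489), and their part in this spread was not tested. The median SD was 0.06 in ND and 0.12 in HFD for these probes, and 0.11 and 0.14 for all probes tested. HFD 2 also stood apart in its cell markers. The mean level of 7 tested atrial muscle genes, of 8 listed, was 0.01 in HFD 2 and 3.01 to 6.16 in the other 5 hearts. For 5 tested white adipocyte genes, of 6 listed, it was -4.08 in HFD 2 and -1.75 to -0.17 in the others. The 11 cardiomyocyte genes had a mean of 8.48 in HFD 2, 8.37 to 8.39 in the ND hearts and 8.23 to 8.28 in the other HFD hearts, but the excess over the ND hearts came mostly from Myh7, the slow myosin heavy chain. Without Myh7, a choice made after seeing the data, the mean of the remaining 10 was 8.73 in HFD 2, 8.70 to 8.72 in ND, and 8.60 and 8.45 in HFD 1 and HFD 3. Among all 6 hearts, HFD 2 was the highest for 6 of the 17 calcium cycling probes, those of Atp2a2, Atp2a1 and Trdn. The part of tissue makeup in these values was not tested. In whole tissue, fewer cells of a type and less RNA per cell cannot be told apart.

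**Figure D3:**
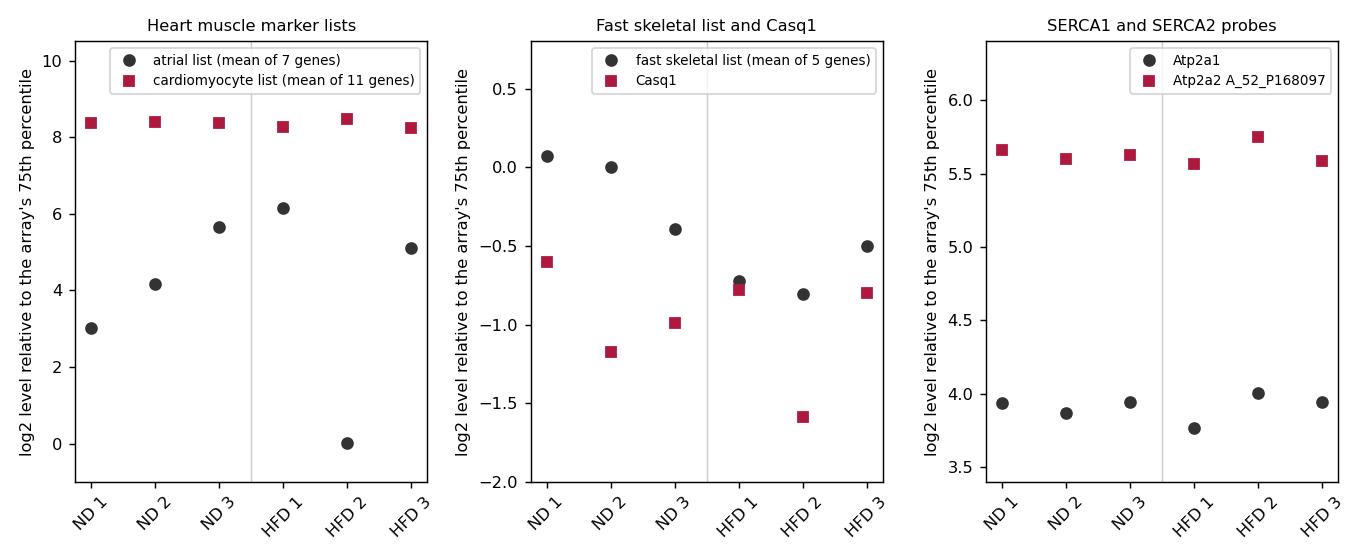
Log2 level relative to the array's 75th percentile (y axes, on different ranges) in each of the 6 hearts for the mean of the atrial and cardiomyocyte lists (left), the mean of 5 fast skeletal genes and Casq1 (middle), and Atp2a1 with Atp2a2 A_52_P168097 (right). HFD 2 had by far the lowest atrial mean and the lowest Casq1 level, the fast skeletal mean was -0.80 to -0.50 in the HFD hearts, and Atp2a1 lay between 3.77 and 4.01 in all 6.

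Other genes of calcium handling, 51 in number and 1 probe a gene, were all tested. At an unadjusted limma p below 0.05, 5 were higher in HFD, beside 5.24% of all probes tested, and 6 lower, beside 6.63%, and 0 passed the adjustment. The median fold change was -0.03. The groups did not overlap for 12 of them, beside 19.0% of all probes tested. These counts depended on the hearts used. Leaving out ND 1, ND 2, ND 3 or HFD 3 gave 6 genes below 0.05 each time, where 7.86% to 10.6% of all probes were. The number was 7 without HFD 1 (11.8% of all probes) and 13 without HFD 2 (12.6%).

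At the junction between the cell membrane and the store, Cacnb2 had the smallest p of the 51 genes. It encodes a beta subunit that brings the L-type calcium channel to the cell surface. It read 0.48, 0.33 and 0.39 in ND against 1.05, 0.81 and 0.85 in HFD, so that every HFD heart lay well above every ND heart. HFD was at 141% of ND (log2 fold change 0.50, SE 0.09, limma adjusted p = 0.166), and a further Cacnb2 probe had a fold change of 0.44 (SE 0.15). The other 5 genes of this group were past neither threshold, among them Cacna1c, the pore of the channel (0.24, SE 0.15), and Jph2, a junctophilin that ties the membranes together (-0.12, SE 0.09).

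Around the ryanodine receptor and in the store, 3 of 16 genes were higher and 1 lower at an unadjusted limma p below 0.05. The shares over all probes tested were 5.24% higher and 6.63% lower. Itpr1, the inositol trisphosphate receptor, read 2.41, 2.40 and 2.30 in ND and 2.70, 2.59 and 2.57 in HFD (log2 fold change 0.25, SE 0.07, adjusted p = 0.300). Pde4d, a phosphodiesterase that breaks down cyclic AMP, was higher by 0.33 on the log2 scale (SE 0.12, adjusted p = 0.387) and by 0.43 at a further probe. Calm2, one of the calmodulin genes, was the third. Asph, the gene that also gives rise to junctin, was lower at its brightest probe (-0.28, SE 0.08, adjusted p = 0.303). It was also lower at A_55_P1967414 (-0.20, SE 0.08) and A_52_P306351 (-0.10, SE 0.08). Only 1 of its 4 probes, a dimmer one, was higher (0.12, SE 0.07), so its direction depends on the probe.

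Among kinases and phosphatases, 1 of 13 genes was higher and 3 lower at an unadjusted limma p below 0.05. Of all probes tested, 5.24% were higher and 6.63% lower at that limit. Ppp1r3a, a regulatory subunit that brings protein phosphatase 1 to glycogen and to the store, read 2.92, 2.87 and 2.93 in ND and 2.54, 2.65 and 2.62 in HFD, at 81.2% of ND (log2 fold change -0.30, SE 0.07, limma adjusted p = 0.237). Prkar1a, a regulatory subunit of protein kinase A, differed by -0.28 on the log2 scale (SE 0.11, adjusted p = 0.403) and by -0.09 at another probe. The relatives of Camk2d did not go one way: Camk2g was higher by 0.23 (SE 0.09, limma adjusted p = 0.408), and Camk2a stood at 0.01 (SE 0.12). Camk2b was lower at its brighter probe (-0.28, SE 0.11) but not at a dim further probe (0.12, SE 0.16).

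In the group of calcium extrusion and the sodium pump, 2 of 8 genes were lower at an unadjusted limma p below 0.05. The share lower at that limit was 6.63% over all probes tested. Fxyd1, phospholemman, which restrains the sodium pump, was at 88.3% of ND (SE 0.07 on the log2 scale). The exchangers Slc8a2 (0.32, SE 0.14) and Slc8a3 (0.25, SE 0.13) were past neither threshold.

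Of 5 further genes that act on SERCA or belong to its family, none had an unadjusted limma p below 0.05. All 5 had fold changes below 0, as did 14334 of all 27590 probes tested. Those of Atp2a3, Hax1, Calr and S100a1 were small, at -0.01, -0.03, -0.10 and -0.13, with SEs of 0.06 to 0.11. Sln, sarcolipin, a SERCA inhibitor found mainly in the atria, ranged most, with levels of 3.43, 5.05 and 6.97 in ND and 7.45, -2.14 and 6.46 in HFD. HFD 2, the heart with the lowest atrial markers, was the low one, and Sln is itself one of the atrial genes listed. Its fold change of -1.23 (SE 2.62) was within the spread between hearts. None of the 3 genes of store-operated entry, Stim1, Stim2 and Orai1, had an unadjusted p below 0.05.

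**Figure D4:**
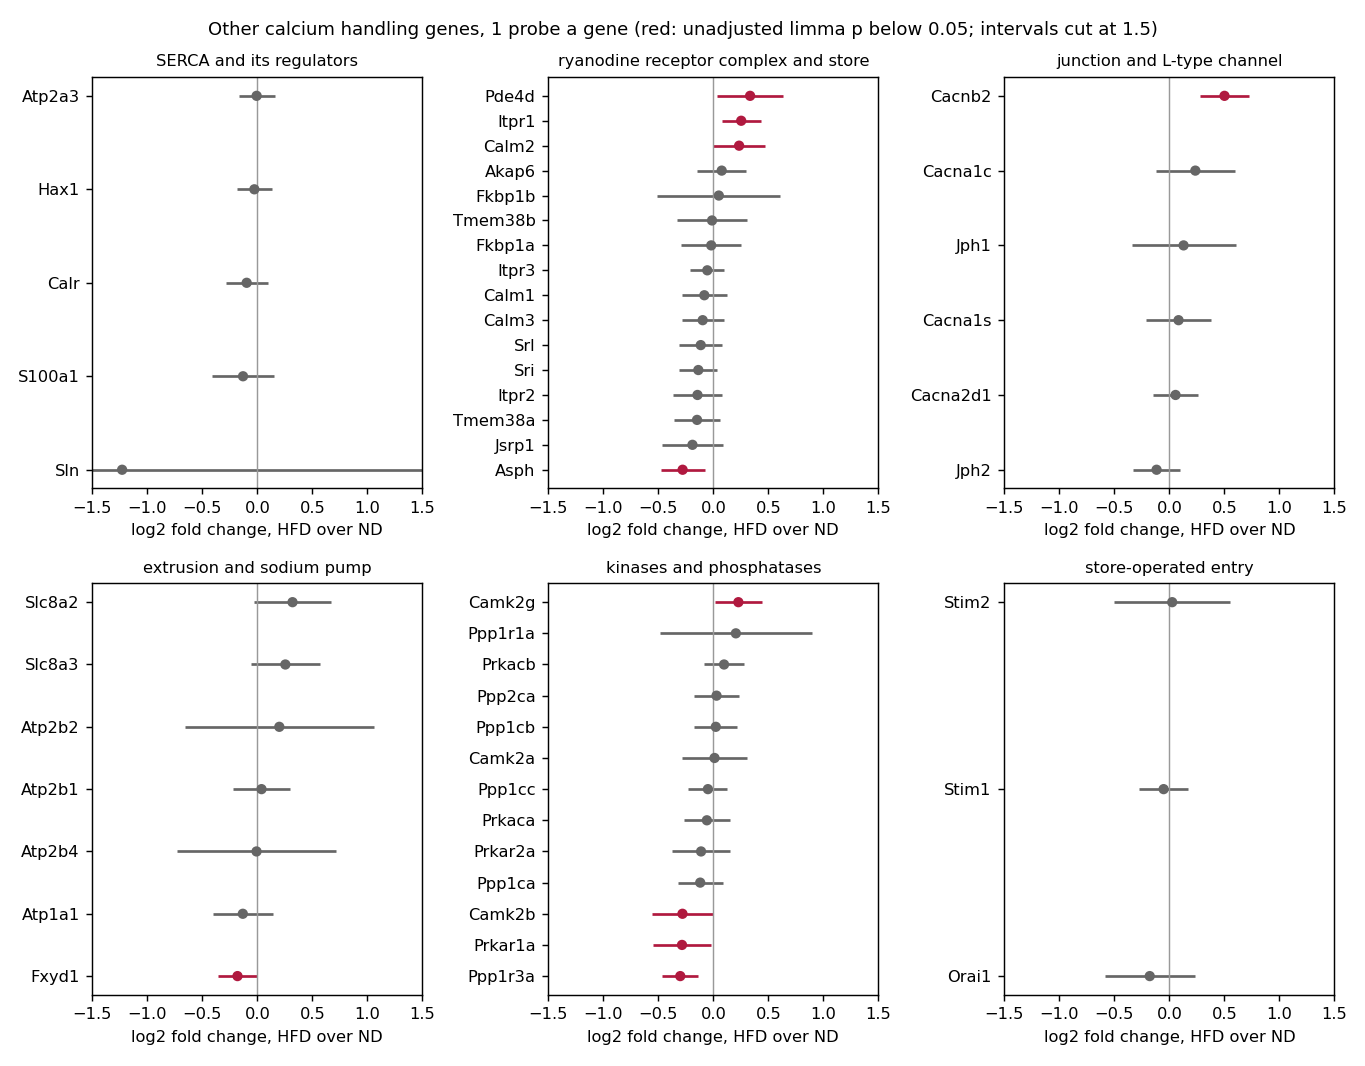
Log2 fold change of HFD over ND (x axes) with the limma 95% confidence interval for 50 of the 51 other calcium handling genes in 6 groups by role, red where the unadjusted p is below 0.05, with intervals drawn only to 1.5 on each side. Cacnb2 is farthest to the right, Sln has the widest interval, and 5 red genes lie to the right and 5 to the left of 0.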

How the data were processed

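RNA from 6 hearts was measured on 6 one-colour arrays of 55681 probes. The authors deposited the linear intensity of each spot, from which Agilent Feature Extraction 10.7.1.1 had subtracted background, not normalized between arrays. The log2 values that the authors also deposited matched a quantile normalization of those intensities and served as an alternative. Control and outlier-flagged spots (127 to 190 per array) were left out, and spots of a probe were averaged. From the log2 intensity, each array's 75th percentile was subtracted. A probe was tested if all arrays of 1 diet or both had it well above background and 2 arrays per diet measured it, with the two-sided test of limma 3.58.1 (lmFit, eBayes) in R 4.3.3 and Benjamini-Hochberg adjustment. The code was tested on simulated data. Every probe of the 10 genes was named, and of the 51 other genes (brightest probe each) those with the 8 smallest p, plus others chosen after their values were seen. The separate result of 1 of these genes is not reported here. Members and lists were chosen with earlier results of these data known. Gene names are the array's, and 15 of 17 probe accessions matched RefSeq, all 15 with the same symbol. Figures were drawn in matplotlib. The alternatives were other normalizations, background corrections and filters, the methods' t-test, array weights, an intensity trend, the replicate block, the slide row and each heart left out. The replicate numbers were not treated as pairs.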

Additional observations from a re-analysis of the deposited data

How the results depend on the processing

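Under 19 other settings none of the 17 calcium cycling probes passed the adjustment in limma, and 12 of them kept their direction in every one. At an unadjusted p below 0.05 there were 0 probes as reported, 3 with quantile normalization (beside 12.2% of all probes tested), 2 with the log2 values of the authors (12.2%), with array weights (14.5%), with the methods' t-test (11.4%) and with the 75th percentile taken without outlier spots (11.9%; chosen after seeing the data), 1 with normexp (11.3%), and 0 to 2 with a heart left out (7.86% to 12.6%). Probes without overlap numbered 2 as reported, 5 with quantile normalization and with the authors' table (20.2% of all probes in both), 14 within row 2 of the slide (1 HFD heart, taken to vary like the ND hearts, where 58.7% of all probes did not overlap), and 2 to 11 with a heart left out, 11 without HFD 2 (33.2%). Of the other calcium genes 11 were below 0.05 as reported (beside 11.9% of all probes tested) and 5 with no filter on dim probes (6.17%). There were 3 with the slide row as a term (7.74%) and 6 to 13 with a heart left out (7.86% to 12.6%).

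Direction turned for 5 probes. Atp2a1 was at 0.0225 with quantile normalization, 0.0205 with the authors' table, 0.0269 with the slide row and within row 2, and 0.000491 with the percentile without outlier spots. Its range with a heart left out was -0.0604 to 0.0574. Atp2a2 A_52_P168097 was at -0.0162 with array weights and -0.0424 with the slide row and within row 2, and ran from -0.0552 to 0.0382 with a heart left out. Casq1 was at 0.12 with the slide row and within row 2, and from -0.27 to 0.13 with a heart left out. Ryr2 was at -0.0494 with the slide row and within row 2. Trdn A_55_P2401646 ran from -0.120 to 0.0377 with a heart left out. Sizes also moved with the normalization. With quantile normalization Hrc was at -0.07 instead of -0.16, and Pln at -0.05 instead of -0.11. Atp2a2 A_51_P451075 was at -0.02 instead of -0.07, while Camk2d A_52_P188261 moved little, to -0.16 from -0.17. The cause of these changes was not tested.

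With the replicate number as a block, 0 calcium cycling probes and 9 of the other genes were below 0.05, beside 10.9% of all probes. None passed the adjustment. Deviations of same-numbered hearts correlated at -0.15, 0.15 and 0.19, and those of differently numbered hearts at -0.30 to 0.19. With so few hearts these values cannot tell whether same-numbered hearts were handled together. The 3 hearts per diet limit all values.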

Other observations

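Marker genes of other cell types of the heart were also measured. Their mean log2 levels per list, in the ND and then the HFD hearts, ran from 3.90 to 4.00 and 3.57 to 4.07 for fibroblasts, 2.05 to 2.15 and 2.08 to 2.21 for endothelial cells, 3.13 to 3.49 and 2.90 to 4.52 for smooth muscle, 1.04 to 1.13 and 1.02 to 1.06 for macrophages, 3.20 to 3.98 and 2.41 to 2.82 for erythroid cells, -1.75 to -0.74 and -4.08 to -0.17 for white adipocytes, and 4.78 to 5.25 and 5.10 to 5.59 for brown adipocytes. The erythroid ranges did not overlap: all 5 tested erythroid genes, of 7 listed, were lower in HFD, 4 of them at an unadjusted limma p below 0.05 (beside 6.63% of all probes) and 0 after adjustment. Of the brown adipocyte genes, 2 of 4 were tested, Cidea and Ppargc1a, so the mean rests on these alone. Ucp1 and Elovl3 did not meet the rule for testing. Cidea was higher in every HFD heart, at 5.67 to 5.94 against 5.41 to 5.54 in ND (limma adjusted p = 0.289). Ppargc1a overlapped between the diets (log2 fold change 0.07, SE 0.30, limma adjusted p = 0.951). The high smooth muscle value came from HFD 1 and the low fibroblast and white adipocyte values from HFD 2. The part of these cells in the values of the calcium genes was not tested.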
